A study of Mus musculus with 8 samples.

Results

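The 9 genes described here encode the enzymes that make and spend citrulline, arginine and ornithine in the intestinal epithelium: Nags, Cps1, Otc, Ass1, Asl, Arg2, Oat, Aldh18a1 and Odc1. They were chosen by name for their place in the pathway, by matching the Ensembl identifiers of the files to these mouse symbols, and they are 9 of the 23318 genes in the files. Small intestine epithelium of the mouse was sorted by flow cytometry into cells with an intermediate level of the surface protein CD24 (CD24Mid, 4 libraries) and cells without it (CD24Neg, 4 libraries). From both fractions, cells positive for CD45, a marker of white blood cells, or binding the lectin UEA of Ulex europaeus had been removed, and RNA of the sorted cells was sequenced. The libraries are numbered 1, 3, 5 and 7 in CD24Mid and 2, 4, 6 and 8 in CD24Neg, and were described as biological replicates. The labels tie no library to an animal, so the p-values measure the spread between these libraries. The labels name no strain, genotype, sex, age or treatment. Each fraction is a gate on surface markers and holds more than 1 cell type.

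The small intestine makes citrulline from glutamine, glutamate and proline and releases it to the blood, from which the kidney makes arginine. In mitochondria, Aldh18a1 and Oat lead from glutamate to ornithine, Nags makes the cofactor that Cps1 needs, Cps1 makes carbamoyl phosphate, and Otc joins it to ornithine to give citrulline. Ass1 and Asl turn citrulline into arginine in the cytosol, a step that the gut of newborn animals carries out and that is weak in the adult gut. Arg2 splits arginine into ornithine and urea in mitochondria, and Odc1 turns ornithine into putrescine, the first polyamine, for which dividing cells have a high demand.

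The enzymes of this pathway did not move in 1 direction. Of the 9 genes, 5 were higher in CD24Neg (Arg2, Nags, Aldh18a1, Otc and Asl), 3 were lower (Ass1, Cps1 and Odc1) and Oat passed in neither direction, by limma with Benjamini-Hochberg adjustment at 0.05 over the 12906 genes tested. All 9 passed the filter on low values. Among all tested genes, 34.0% were called higher in CD24Neg and 34.3% lower, 68.3% in either direction, so a call by itself sets no gene apart from the rest. The median log2 difference of the 9 genes was 0.36, which is the value of Asl, the least certain of the calls, against -0.02 over all tested genes. For 4 genes every CD24Neg library was above every CD24Mid library, and for 3 every one was below. Among all tested genes, 31.8% had ranges that did not overlap and were higher in CD24Neg, and 32.1% were lower without overlap. By place in the cell, 4 of the 6 mitochondrial enzymes were higher in CD24Neg, Cps1 was lower and Oat was not called. Of the 3 cytosolic enzymes, Ass1 and Odc1 were lower and Asl was higher.

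**Figure D1:**
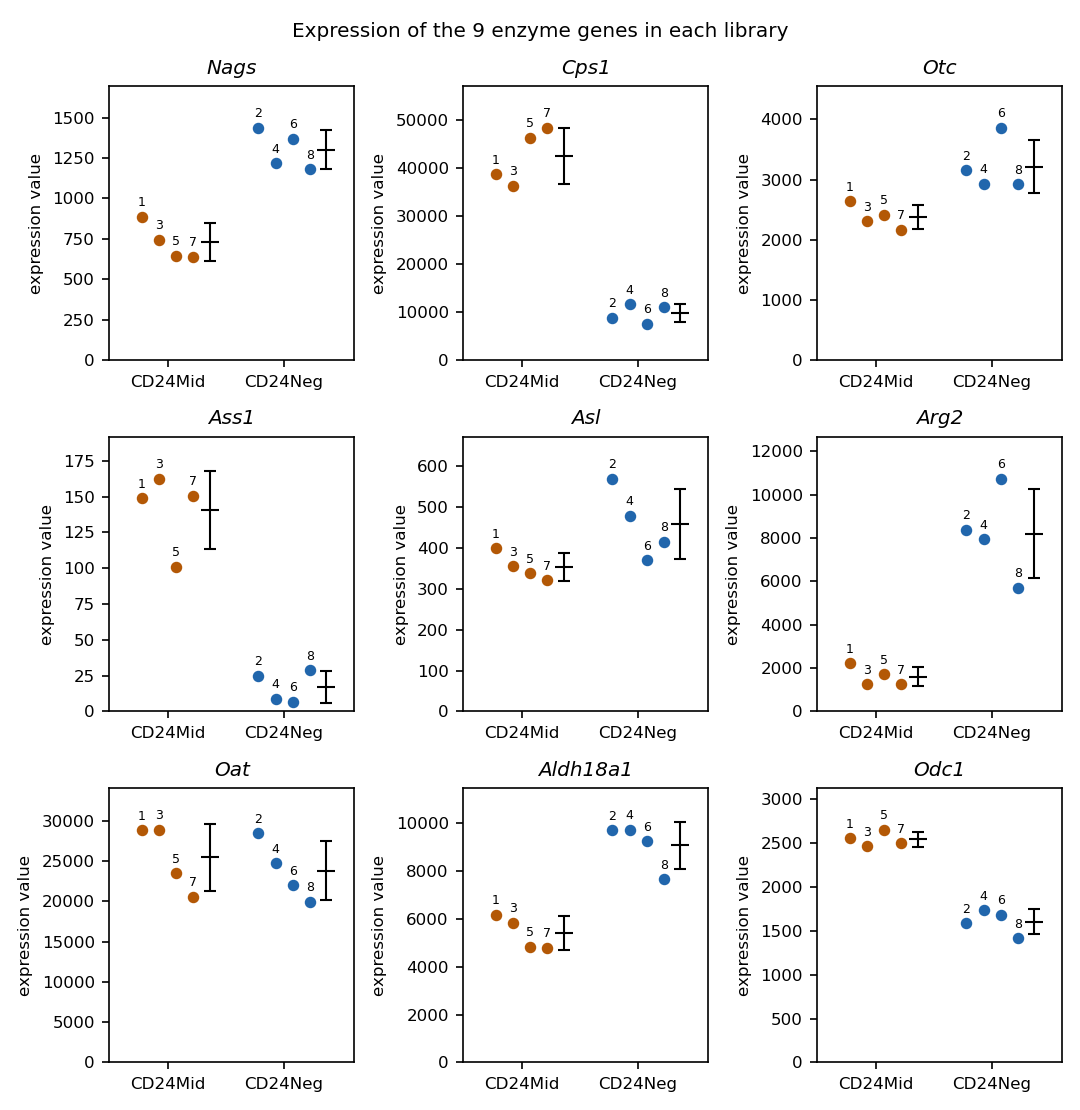
Expression value (linear axes from 0, a scale per gene) of the 9 genes in the 8 libraries, with CD24Mid and CD24Neg side by side. Numbered points are libraries, and the bars give the mean and SD of 4. Arg2 sits between 1248 and 2211 in CD24Mid and between 5712 and 10728 in CD24Neg, Cps1 lies the other way round, and the points of Oat and Asl overlap between the fractions.

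Promoter sequence was at hand for 6 of the 9 genes (RefSeq, build GRCm38.p6). The 120 bases that end just before the transcription start are given for 4 of them, 1 gene lower in CD24Neg with a nearly silent level there (Ass1), the polyamine entry gene (Odc1), and 2 mitochondrial enzymes that were higher (Otc and Aldh18a1). Capitals mark matches, on either strand, to the GC box GGGCGG and the E-box CACGTG. The windows were also searched for TATAAA and CCAAT, and no matches in them overlapped.
Ass1: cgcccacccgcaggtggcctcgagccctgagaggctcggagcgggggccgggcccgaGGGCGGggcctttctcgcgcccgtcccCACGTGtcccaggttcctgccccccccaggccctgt
Odc1: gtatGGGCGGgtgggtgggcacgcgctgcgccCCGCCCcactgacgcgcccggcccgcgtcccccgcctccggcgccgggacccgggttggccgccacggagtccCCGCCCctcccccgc
Otc: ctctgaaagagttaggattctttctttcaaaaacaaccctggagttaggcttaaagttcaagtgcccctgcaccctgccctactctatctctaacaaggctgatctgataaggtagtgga
Aldh18a1: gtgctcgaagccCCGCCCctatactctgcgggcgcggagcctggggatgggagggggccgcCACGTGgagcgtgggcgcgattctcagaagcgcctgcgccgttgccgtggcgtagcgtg
The Ass1 stretch lies at chr2:31470150-31470269 on the plus strand and holds 1 GC box, beginning at -63 from the start, and 1 E-box at -36. The Aldh18a1 stretch at chr19:40588464-40588583, on the minus strand, also holds 1 GC box (-108) and 1 E-box (-59). The Odc1 stretch, chr12:17544753-17544872 on the plus strand, holds 3 GC boxes at -116, -88 and -15. The Otc stretch, chrX:10252185-10252304 on the plus strand, holds none of the 4 motifs, and its GC content was 44.2%, against 78.3% for Ass1, 84.2% for Odc1 and 72.5% for Aldh18a1. Of the other 2 genes with an entry, Oat has 2 CCAAT matches (-47 and -22) and Nags 1 GC box (-41). In 32851 mouse promoter windows of the same length, 26.5% hold the GC box, 21.3% CCAAT, 6.34% TATAAA and 3.66% the E-box. The E-box therefore occurs upstream of 1 gene that was lower in CD24Neg and 1 that was higher. These matches describe letters only.

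The deposited values are gene-level expression estimates with decimals, already scaled between libraries, and depth was estimated from the even steps between the lowest values. It came to 17.4 to 19.7 M reads per CD24Mid library and 12.5 to 20.7 M per CD24Neg library. A single read was worth 0.581 to 0.7 units in CD24Mid, against 1.07 to 1.78 in CD24Neg, so low values are less precise in CD24Neg. Genes encoded in the mitochondrial genome took 8.03 to 9.10% of the signal in CD24Mid and 28.3 to 37.4% in CD24Neg. All 10 enterocyte markers were higher in CD24Neg (summed value 497652 to 864025, against 24335 to 40158 in CD24Mid). All 5 stem cell markers (1794 to 5258, against 44649 to 58702) and all 5 cycling markers (2401 to 4917, against 17399 to 26855) were lower. All 5 goblet cell markers were higher in CD24Neg as well (181869 to 504156, against 47348 to 74361). Of the 5 enteroendocrine markers 4 were lower (summed value of the 5 887 to 1189, against 3338 to 7525), and Cck was not called. Of the 4 plasma cell markers, Jchain, Mzb1 and Cd79a were lower and Xbp1 was higher. Their sum was 3054 to 3826, against 4831 to 9543, with Xbp1 alone at 2714 to 3590, against 1907 to 2481. Jchain was at 168 to 389, against 2782 to 7263. For these bulk samples, fewer cells of a type and less RNA per cell cannot be told apart, and the part of these mixtures in the differences below was not tested.

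Cps1, which fixes ammonia as carbamoyl phosphate and was the second most abundant of the 9 enzymes per length in CD24Mid, was 4.35-fold lower in CD24Neg. Its values were 38751, 36374, 46393 and 48438 in CD24Mid libraries 1, 3, 5 and 7, and 8931, 11658, 7671 and 11083 in CD24Neg libraries 2, 4, 6 and 8. Every CD24Mid library was above every CD24Neg library. The means were 42489 ± 5831 and 9836 ± 1860 (SD, n = 4 each), a log2 difference of -2.12 (SE 0.17, 95% interval -2.49 to -1.75), with an adjusted p of 2.38e-06 by limma. Liver cells also make Cps1 in large amounts. The 5 hepatocyte markers had a summed value of 141 to 414 in CD24Mid libraries, against 36.3 to 68.9 in CD24Neg. Most of the CD24Mid sum came from Ttr and Cyp2e1, the only 2 tested, and both were called lower in CD24Neg. Albumin (Alb) read 5.10 to 13.9 in CD24Mid, against 0 to 1.11. Tat went the other way without overlap, reading 7.92 to 25.2 in CD24Neg libraries, against 0.371 to 3.72. Serpina1a overlapped between the fractions. The part of these markers in the Cps1 difference was not tested.

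Nags, whose product N-acetylglutamate switches Cps1 on, moved the other way. It measured 889, 746, 647 and 640.02 in CD24Mid and 1436, 1218, 1368 and 1182 in CD24Neg, with no overlap between the fractions. The log2 difference was 0.84 (SE 0.13), from a mean of 731 ± 116 to 1301 ± 121 (SD, n = 4 each), or 1.79-fold, with a limma adjusted p of 0.000184. An antisense gene, Gm11586, overlaps it and was at 2.46 to 19.7 in CD24Mid and 15.3 to 43.9 in CD24Neg. Gm11586 was also called higher in CD24Neg (log2 difference 1.52, limma adjusted p 0.0390), and its part in the Nags difference was not tested. Strand use in the counting is not given in the sources used here, so reads of the 2 genes may be mixed.

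Otc, which makes citrulline itself, was modestly higher in CD24Neg. Its values were 2643, 2307, 2419 and 2172 in CD24Mid, and 3156, 2932, 3861 and 2921 in CD24Neg. The fractions did not overlap. The means were 2385 ± 199.5 and 3217 ± 443 (SD, n = 4 each), and the log2 difference was 0.43 (SE 0.12), 1.34-fold, with a limma adjusted p of 0.0083. This direction depends on the scaling: it was -0.05 under quantile normalization and -0.04 when libraries were scaled on totals without mitochondrially encoded genes, neither past the threshold. On the latter scale the median of all tested genes stood at -0.48, and Otc lay 0.44 above it, against 0.45 above the median in the deposited scaling. Under quantile normalization it lay only 0.010 above the median.

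Ass1 and Asl, which act one after the other on citrulline, went apart. Ass1 was low in CD24Mid and near the floor of measurement in CD24Neg. It read 149, 162, 101 and 151 in CD24Mid, and 24.9, 8.89, 6.77 and 28.8 in CD24Neg, where these values stand for an estimated 5.28 to 18.2 reads. All CD24Mid libraries were above all CD24Neg libraries, and the spread was wide within CD24Neg. The means were 141 ± 27.1 and 17.3 ± 11.1 (SD, n = 4 each), and Ass1 fell by 3.21 on the log2 scale (SE 0.45, 95% interval -4.21 to -2.21), the largest difference among the 9 genes, with a limma adjusted p of 0.000116. The 2 CD24Neg libraries with more Ass1, 2 and 8, also had the highest sums of 6 T cell markers, 7082 and 5464, against 424 in library 4 and 1217 in library 6 and 89.2 to 246 in CD24Mid. The sort removed CD45-positive cells, which would include T cells, yet Ptprc, the gene of CD45, was at 316 and 551 in libraries 2 and 8. Libraries 2 and 8 also had the highest share of mitochondrially encoded genes, 35.6 and 37.4%, against 28.3 and 28.9% in libraries 4 and 6. Their enterocyte marker sums were the lowest of CD24Neg, 497652 and 508852, against 726745 and 864025 in libraries 4 and 6. Whether T cells carry this Ass1, or how it relates to these other traits, was not tested. Without libraries 2 and 8 the log2 difference of Ass1 was -4.07. Leaving out the highest CD24Neg values must widen it, so this says nothing about T cells. The near-identical gene copy Gm5424 (99.5% identity over 1240 aligned bases) stood at up to 2.68, at most 9.32% of Ass1 in any library, so a small part of the Ass1 reads is uncertain.

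Asl, which splits argininosuccinate into arginine and fumarate, was slightly higher in CD24Neg and the least certain of the calls. It measured 398, 354, 337 and 320.3 in CD24Mid, and 569, 478, 369.8 and 415 in CD24Neg. CD24Neg library 6 lay below CD24Mid library 1, so the ranges overlapped. The means were 353 ± 33.6 and 458 ± 86.1 (SD, n = 4 each), a log2 difference of 0.36 (SE 0.14) with a limma adjusted p of 0.0444. Leaving out any of CD24Neg libraries 2 or 4 or CD24Mid libraries 3, 5 or 7 took the adjusted p past 0.05 (0.112, 0.0975, 0.0771, 0.0942 and 0.108). Scaling on totals turned the sign (-0.06 without the 20 most abundant genes, -0.10 without mitochondrially encoded genes). On both totals, as in the deposited scaling, Asl lay 0.38 above the median of all tested genes.

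Arg2, the mitochondrial arginase, had the largest rise. Its values were 2211, 1265, 1713 and 1248 in CD24Mid, and 8389.8, 7934, 10728 and 5712 in CD24Neg. The lowest CD24Neg library was well above the highest CD24Mid library. From means of 1609 ± 455 to 8191 ± 2057 (SD, n = 4 each), Arg2 rose 5.11-fold, a log2 difference of 2.35 (SE 0.23, 95% interval 1.85 to 2.86) with a limma adjusted p of 8.85e-06. Its antisense neighbour Vti1b, a gene of vesicle fusion, overlaps it and was also higher in CD24Neg, at 1194 to 1328 against 755 to 888 in CD24Mid (log2 difference 0.64), and its part in the Arg2 difference was not tested. Arg1, the cytosolic arginase of liver, stood at 12.4 to 29.8 in CD24Mid, against 0 to 11.1 in CD24Neg, and was called lower (-3.09, limma adjusted p 0.0205). That value rests on CD24Neg libraries 2 and 8, both listed at 0: without either it was -2.43, and without both -1.10, no longer called (adjusted p 0.0833). Without CD24Neg library 4 it was -3.93. The call was also lost without CD24Mid library 3 (0.0588), without CD24Neg library 8 (0.0520), with no filter (0.0721) and against a fold of 1.5 (0.0517). Macrophages, which can also make Arg1, carry CD45 and would be removed by the sort. Their 5 markers had a summed value of 150.5 to 333 in CD24Mid, against 45.03 to 118 in CD24Neg, and their part in it was not tested.

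Oat, which interconverts ornithine and the precursor it shares with proline, was abundant in both fractions. It measured 28881, 28890.4, 23478 and 20608 in CD24Mid, and 28452, 24719, 22025 and 19952 in CD24Neg. The fractions lay over each other. The means were 25464 ± 4121 and 23787 ± 3671 (SD, n = 4 each), and the log2 difference was -0.10, with a 95% interval of -0.46 to 0.26 and a limma adjusted p of 0.613. That interval spans both directions. Oat was called lower under 3 other scalings: quantile normalization (-1.11, adjusted p 2.48e-05), totals without the 20 most abundant genes (-0.52, 0.0120) and totals without mitochondrially encoded genes (-0.56, 0.00779). On those totals the median of all tested genes was itself -0.44 and -0.48. Oat minus the median was -0.080 on both, against -0.077 in the deposited scaling and -1.05 under quantile normalization.

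Aldh18a1, the P5C synthase that makes the precursor of proline and ornithine from glutamate, was higher in CD24Neg. Its values were 6180.1, 5835, 4845 and 4803 in CD24Mid, and 9705, 9725, 9249 and 7656 in CD24Neg, and all CD24Neg libraries were above all CD24Mid libraries. The means were 5416 ± 698 and 9084 ± 977 (SD, n = 4 each), 1.68-fold, with a log2 difference of 0.75 (SE 0.13) and a limma adjusted p of 0.000499. The call held under each scaling tried, but came near the threshold. The difference was 0.27 under quantile normalization (limma adjusted p 0.0491). It was 0.28 on totals without mitochondrially encoded genes (0.0458) and 0.32 on totals without the 20 most abundant genes (0.0294).

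Odc1, the entry to polyamines, was lower in CD24Neg. It read 2557, 2466, 2654 and 2502 in CD24Mid, a spread of a few percent, and 1588, 1738, 1687 and 1415 in CD24Neg, with no overlap. The means were 2545 ± 81.6 and 1607 ± 142 (SD, n = 4 each), 1.59-fold, with a log2 difference of -0.67 (SE 0.09) and a limma adjusted p of 0.000116. Odc1 has 13 near-identical pseudogenes in the annotation, of which 8 are in the files. Their summed value, 24.7 to 107.7, was at most 6.2001% of Odc1.

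**Figure D2:**
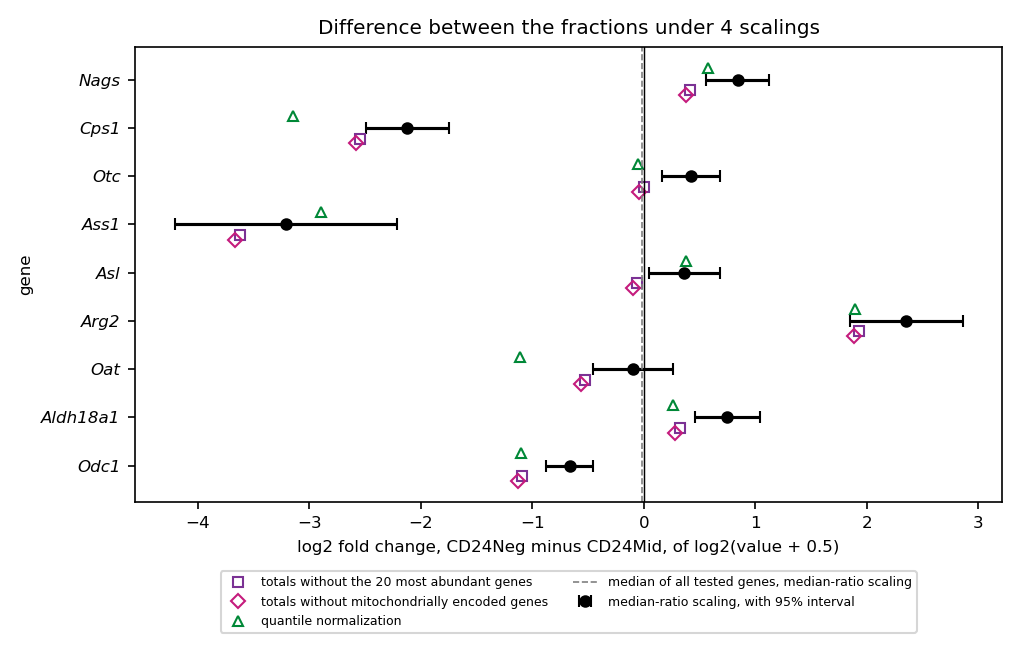
Log2 difference of each gene, CD24Neg minus CD24Mid, with its 95% interval, in the median-ratio scaling (black), and without interval under 3 other scalings (open symbols). Ass1 and Cps1 lie far to the left and Arg2 far to the right throughout, while Otc and Asl cross 0 in some scalings.

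Among the 9 genes, Cps1, Ass1 and Arg2 kept direction and call under every alternative that tested them (20, 19 and 20 runs). Ass1 was not tested in the run that kept only genes at 10 or more in all 8 libraries. It read 8.89 and 6.77 in CD24Neg libraries 4 and 6. When the test asked for a difference beyond 1.5-fold, only Cps1, Ass1 and Arg2 were called. The adjusted p in that test was 0.0864 for Nags, 0.255 for Aldh18a1 and 0.401 for Odc1. The share of higher against lower calls moved with scaling: the 9 genes gave 5 higher and 3 lower as deposited, 3 and 4 when scaled on totals without the 20 most abundant genes or without mitochondrially encoded genes, and 4 and 4 under quantile normalization. Over all tested genes the 4386 higher and 4424 lower calls became 2842 and 6497 on the first of those scales and 2723 and 6695 on the second, and the median moved to -0.44 and -0.48.

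Per length of transcript, the 9 genes ranked differently in the fractions. In CD24Mid the order of mean value per kilobase was Oat (11833), Cps1 (7649), Aldh18a1 (1536), Odc1 (1152), Arg2 (1127), Otc (796), Nags (360.2), Asl (146) and Ass1 (83.0). In CD24Neg it was Oat (11053), Arg2 (5736), Aldh18a1 (2576), Cps1 (1771), Otc (1074), Odc1 (728), Nags (642), Asl (189.8) and Ass1 (10.2). Thus Oat stood first and Asl and Ass1 last in both, and Arg2 moved up to second place. Neighbours whose libraries overlapped were Odc1 with Arg2 and Arg2 with Otc in CD24Mid, and Odc1 with Nags in CD24Neg. Though not neighbours, Aldh18a1 (1362 to 1752) and Arg2 (874 to 1548) also overlapped in CD24Mid. Lengths are those of the longest coding transcript in GENCODE M21.

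**Figure D3:**
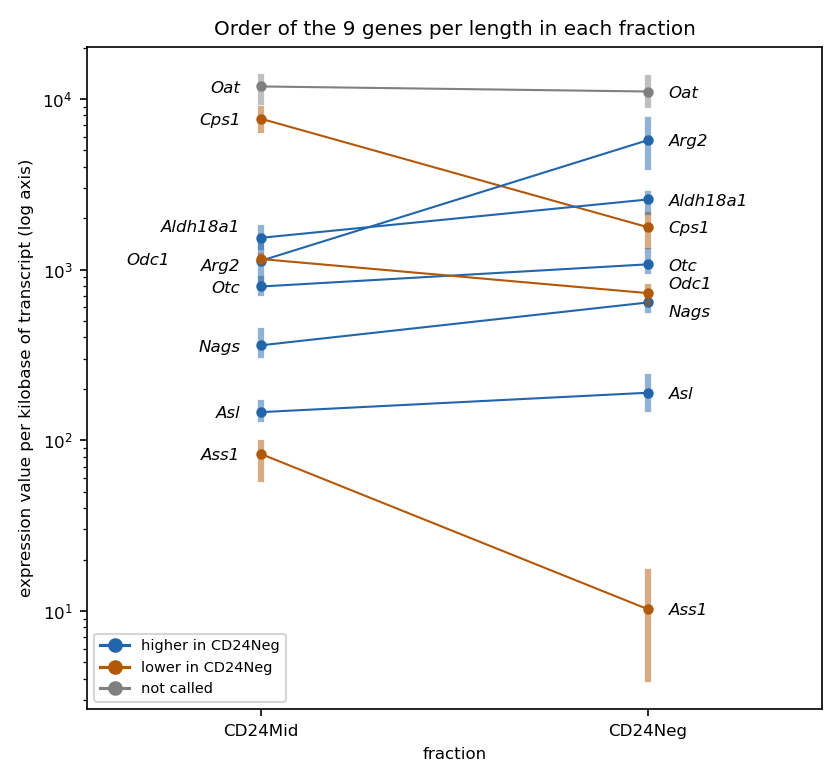
Mean expression value per kilobase of transcript (log axis) of the 9 genes in each fraction, with the library range as a pale bar and a line joining each gene. The lines of Cps1 and Arg2 cross, and Oat stays on top.

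A ratio of 2 genes within a library does not change with the scaling of that library, and 8 ratios at the branch points of the pathway were formed. None overlapped between the fractions, but the share of other gene pairs without overlap was not computed. Among single tested genes, 31.8% were higher in CD24Neg without overlap, and 32.1% were lower without overlap. The 8 ratios share genes. Members that separate in opposite directions, such as Nags and Cps1, give a ratio that must separate too. The log2 ratio of Cps1 to Otc went from a mean of 4.15 in CD24Mid (3.87 to 4.48) to 1.602 in CD24Neg, 5.84-fold lower, so these consecutive enzymes changed unequally. The ratio of Nags to Cps1 went from -5.86 to -2.90, 7.79-fold higher, with the cofactor enzyme gaining on the enzyme it serves. Ass1 to Asl went from -1.34 to -4.97 and Ass1 to Otc from -4.10 to -7.79. The ratio of Arg2 to Otc, which are a source and a user of ornithine, went from -0.61 to 1.32, 3.804-fold higher. The ratio of Odc1, a user of ornithine, to Oat, on the route from glutamate to ornithine, went from -3.31 to -3.88. Aldh18a1 to Oat went from -2.23 to -1.38. Cps1 to Cad, the enzymes that make carbamoyl phosphate for citrulline and for pyrimidines, rose from 4.95 to 5.54: both fell, and Cad (1371 ± 137 to 220 ± 78.6, log2 difference -2.70) fell further. These ratios were not tested.

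**Figure D4:**
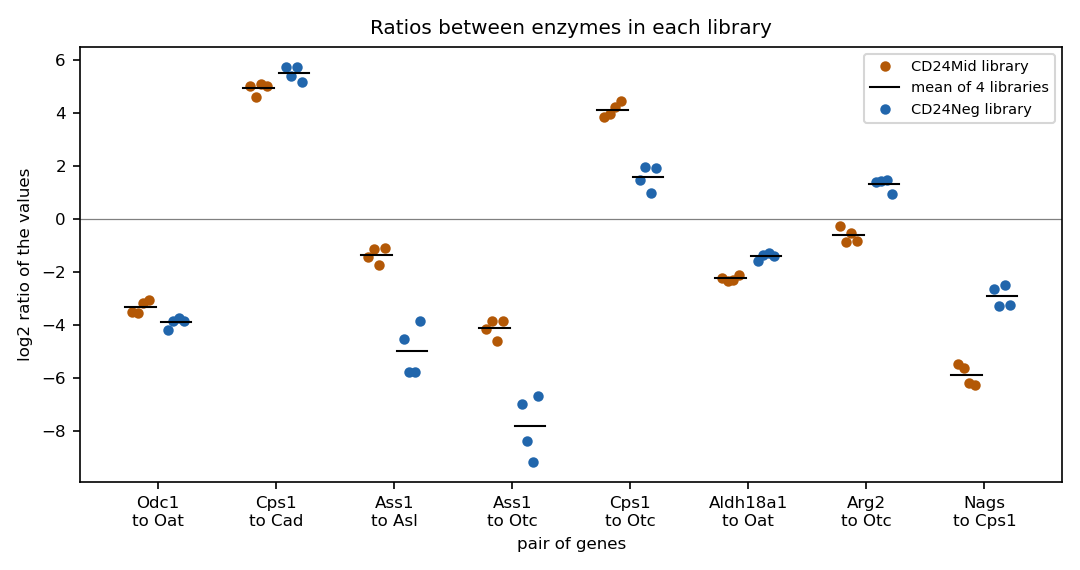
Log2 ratio of 2 genes within each library for 8 pairs at branch points, with a point per library and a line at the mean of 4. In each pair the fractions do not overlap, and the gaps are widest for Ass1 to Otc and Ass1 to Asl.

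The nearest genes by profile were found as the smallest root mean square difference of centred log2 values over the 8 libraries. For Cps1 these were Pitrm1 (0.1002) and Lrig1 (0.111), and for Otc Plpp6 (0.0544) and Aagab (0.0645). For Ass1 they were Asrgl1 (0.304) and Pimreg (0.322), a looser likeness than for any other member. In CD24Neg, Ass1 stood on an estimated 5.28 to 18.2 reads, Asrgl1 on 2.70 to 8.66 and Pimreg on 0.648 to 3.88. The part of these low read numbers in the looser likeness was not tested. Asl was nearest to Cyb561d2 (0.0540) and Cth (0.0684), Arg2 to Cmbl (0.125) and Acad11 (0.140), and Oat to Mrps18c (0.0431) and Qdpr (0.0491). Aldh18a1 was nearest to Kdelr2 (0.0462) and Arhgdia (0.0463), Odc1 to Pofut1 (0.0421) and Rpf1 (0.0651), and Nags to Atpif1 (0.0399) and Mtfr1l (0.0455). The other members were left out of this search, so it does not show how alike the members are to each other.

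Of 73 other genes of these pathways, 61 were tested, 21 were higher and 19 lower in CD24Neg, with a median log2 difference of 0.15. These shares of 34.4% and 31.1% are near those of all tested genes.

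Among genes of arginine and citrulline use, 3 of 9 tested were higher and 2 lower, with a median of 0.38. Nos2, the inducible nitric oxide synthase that returns arginine to citrulline, rose from 210.1 ± 129 to 618 ± 126 (log2 difference 1.73, SD, n = 4 each). Sirt3, a mitochondrial deacetylase, rose from 184 ± 33.4 to 441 ± 37.2 (1.27). Ddah1, which frees citrulline from methylated arginine, rose from 59.7 ± 15.3 to 127 ± 51.5 (1.02), though its call was lost under both totals scalings (adjusted p 0.111 and 0.131) and without CD24Neg libraries 2 and 8 (0.0937). Cad and Arg1, given above, were the 2 that fell. Nos1, Nos3, Gatm, Azin2, Car5a and Car5b were too low to be tested, with 18.3 (Gatm, CD24Mid library 3) as the highest value of any.

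Of 14 polyamine genes tested, 6 were lower and 3 higher in CD24Neg, with a median of -0.26. The enzymes that build spermidine from the putrescine that Odc1 makes fell further than Odc1. Srm, spermidine synthase, fell from 340 ± 13.3 to 48.7 ± 6.86 (-2.80), and Amd1, which makes its aminopropyl donor, from 1348 ± 179.7 to 348 ± 44.9 (-1.95). Mtap, which salvages the by-product, fell from 275 ± 37.2 to 77.1 ± 17.1 (-1.85). Going the other way, Sat1, which acetylates polyamines for breakdown and export, rose from 1532 ± 195 to 2327 ± 175 (0.61), and Azin1, an inhibitor of antizyme, from 2264 ± 243 to 3636 ± 507 (0.68). Both these calls were lost under quantile and totals scaling. Sat2, a relative of Sat1, was at 0 to 3.78 in CD24Mid and 21.4 to 54.3 in CD24Neg. Amd2, Oaz3 and Eif5a2 were not tested, at 13.7 or less in every library.

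Of 14 genes of glutamine, glutamate and proline, 4 were higher and 4 lower, with a median of 0.34. Aldh4a1, which turns the shared proline and ornithine precursor into glutamate, had the largest rise named here, from 12.6 ± 2.96 to 799 ± 215 (5.91). Gpt, an alanine transaminase, rose from 184 ± 39.6 to 4574 ± 596 (4.64), and Got1, an aspartate transaminase of the cytosol, from 607 ± 93.7 to 1579 ± 122 (1.39). Gls2, a glutaminase, fell from 142 ± 17.7 to 11.02 ± 6.78 (-3.89). Glul, glutamine synthetase, fell from 1162 ± 190.5 to 465 ± 101.3 (-1.33).

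Among 14 carriers tested, 7 were higher and 5 lower, with a median of 0.14. Slc3a1, partner of the luminal cystine and cationic amino acid transporter, rose from 415 ± 76.6 to 3087 ± 654 (2.89). Slc7a7, of the basolateral exit route for cationic amino acids, rose from 645 ± 135.7 to 4127 ± 570.1 (2.69), and Slc25a22, a mitochondrial glutamate carrier, from 380.02 ± 42.8 to 2652 ± 511 (2.79). The cationic amino acid carriers Slc7a1 (2313 ± 303 to 527 ± 123, -2.15) and Slc7a2 (181 ± 39.1 to 12.1 ± 7.48, -3.99) fell, as did Slc7a6 (209.8 ± 21.4 to 40.3 ± 12.3, -2.41). Slc25a15, which exchanges ornithine for citrulline across the mitochondrial membrane and was chosen after its values were seen, was at 2171 to 2263 in CD24Mid and 4022 to 6187 in CD24Neg (1.11, limma adjusted p 4.24e-05). Slc25a2, Slc25a18 and Slc38a3 were not tested, at 5.99 or less in every library.

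Of 10 transcription factors, 4 were higher and 2 lower, with a median of 0.22. Myc, which promotes growth and is known to act on Odc1, fell from 1074 ± 165 to 99.1 ± 22.5 (-3.44), far more than Odc1 did. Hnf4a, an intestinal and liver regulator, fell from 13233 ± 285 to 9517 ± 394 (-0.48), while its relative Hnf4g rose from 2277 ± 548 to 8712 ± 2504 (1.92). Klf4 rose from 828 ± 155 to 2693 ± 529 (1.70), and Klf15 was at 0.462 to 4.45 in CD24Mid and 21.8 to 65.9 in CD24Neg.

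**Figure D5:**
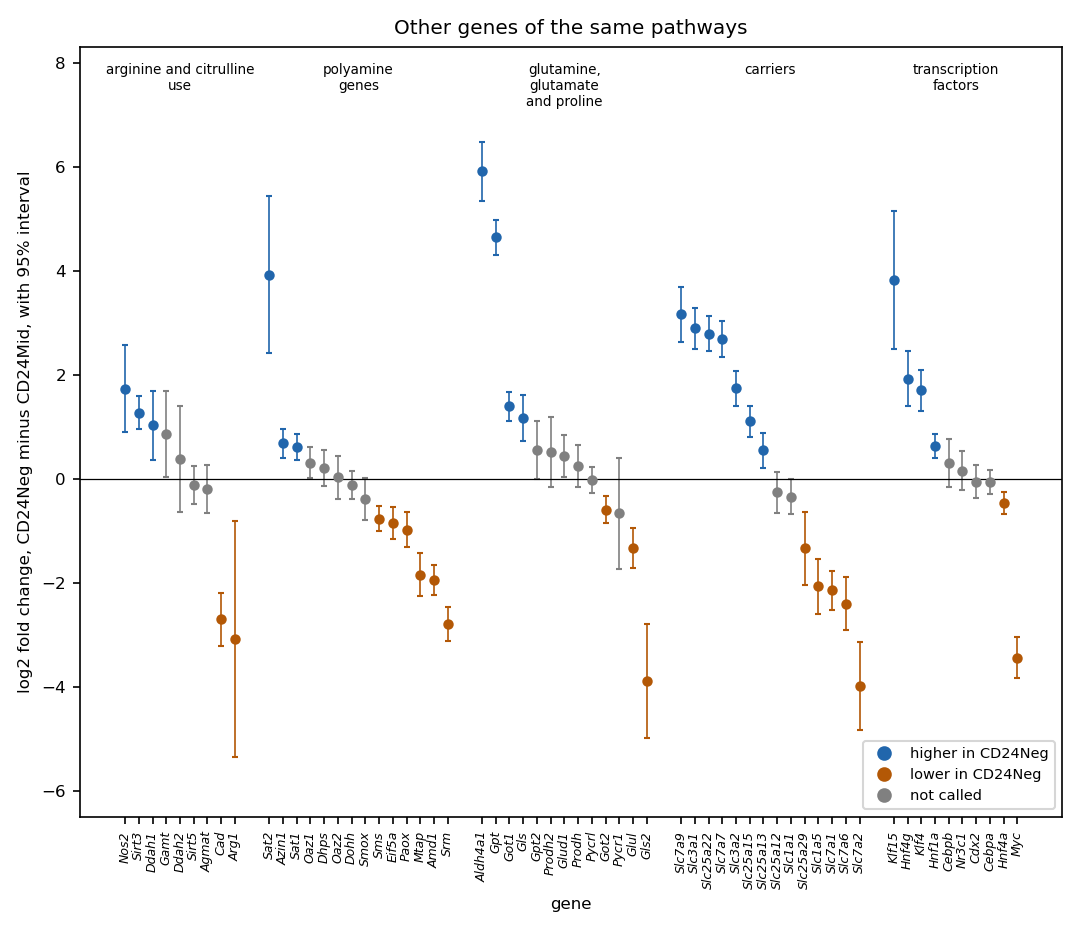
Log2 difference, CD24Neg minus CD24Mid, of the tested genes, except 1 not reported here, in 5 lists of neighbouring pathways, with 95% intervals and coloured by call. Every list spreads to both sides of 0, from Slc7a2 at -3.99 to Aldh4a1 at 5.91.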

How the data were processed

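RNA of the sorted cells was sequenced in 8 libraries, 4 per fraction. The authors deposited a gene-level signal per library, 1 value per Ensembl gene, per the file headers. Bowtie 0.12.8 and the build NCBIM37 come from the submitters' processing notes, and no label names the annotation release. The scale of the libraries was already equalised, as found from the values. The members, lists and rules were chosen with earlier results of these data known. Named genes were the members, the 2 nearest profiles of each, up to 3 genes per direction and list with the smallest adjusted p, and Cad, Hnf4a and Myc. A gene that the rule names is not reported here.

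Symbols were matched for 21223 of 23318 identifiers (GENCODE M21). Values were log2-transformed after adding 0.5, kept at 10 or more in at least 4 libraries, centred on the median ratio and fitted with limma 3.58.1 (R 4.3.3; trend and robust variance), CD24Neg minus CD24Mid, with Benjamini-Hochberg adjustment at 0.05. Fold changes are on this log2(value + 0.5) scale and understate those of low genes. The design foresaw counts or normalized values, and the second was used because the signal has decimals. Scripts were tested on simulated data. Near-identical copies were found with blastn 2.17.0. Alternatives covered pseudocount, filter, scaling, variance model, voom on estimated reads and left-out libraries. Promoter sequence comes from another build (GRCm38.p6), and no other coordinates are given.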

Additional observations from a re-analysis of the deposited data

Results flagged for a closer look

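Among 126 groups of 4 libraries, 8 had 1 library standing apart from the other 3 by Dixon's test, where chance gives about 1 in 20. None was a member gene by itself. In CD24Neg, Nos2 was low in library 4 (431, next 661), Klf4 was low in library 2 (1905, next 2895), Sat2 was high in library 8 (54.3, next 26.1) and Aagab was high in library 6 (1088, next 807). In CD24Mid, Sat1 was low in library 3 (1243, next 1605), and Gpt (244, next 168) and Slc7a7 (849, next 588) were both high in library 1. That library also had the highest summed value of the 10 enterocyte markers in CD24Mid (40158, against 24335 to 29878), and the part of this in Gpt and Slc7a7 was not tested. The log2 ratio of Arg2 to Otc was low in CD24Neg library 8 (0.968, next 1.41).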

How the results depend on the processing

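Cps1, Ass1 and Arg2 kept direction and call under every alternative that tested them. Ass1 was not tested with the filter of 10 or more in all 8 libraries. Otc turned to -0.051 under quantile normalization, -0.0017 on totals without the 20 most abundant genes and -0.040 on totals without mitochondrially encoded genes, and Asl to -0.064 and -0.10 on those 2 totals. On these totals the members called higher were 3 and 3 (main 5), all genes called higher 2842 and 2723 (main 4386), and all genes called lower 6497 and 6695 (main 4424). Other pathway genes called lower were 29 without mitochondrially encoded genes (main 19), and the members higher without overlap were 2 without the 20 most abundant genes (main 4). Against a fold of 1.5, 1 member was called higher, and 2360 genes were called higher and 2430 lower. These shifts come with a change of the median of all genes on the totals scales, and the cause was not tested. Leaving out 1 library changed the call of Asl among the members, with log2 differences of 0.25 to 0.46. No paired analysis was possible because the fractions share no library number and the labels pair no libraries across fractions. Depth limits the genes that rest on few reads in a fraction, among them Ass1, Arg1, Gls2 and Slc7a2 in CD24Neg and Sat2 and Klf15 in CD24Mid.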

Other observations

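Within CD24Mid, members differed in which libraries were high. Asl, Oat, Aldh18a1 and Nags, 4 of the 9, had their 2 highest values in libraries 1 and 3, and Cps1 had its 2 highest in libraries 5 and 7. The other members cut across this split: Otc, Arg2 and Odc1 were highest in libraries 1 and 5, and Ass1 in libraries 3 and 7. The share of all tested genes with each pair of libraries was not computed in either fraction. The summed value of 5 cycling markers was 17399 and 21827 in libraries 1 and 3, and 25022 and 26855 in libraries 5 and 7. No test was made of this. Within CD24Neg, Otc, Arg2 and Nags were highest in libraries 2 and 6, and Asl, Oat and Aldh18a1 in libraries 2 and 4. Ass1 was highest in libraries 2 and 8, Odc1 in 4 and 6, and Cps1 in 4 and 8.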
